A study of Mus musculus with 4 samples.

Results

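The 8 genes described here belong to the synthesis of cholesterol. Hmgcs1, Idi1, Fdps, Fdft1, Sqle and Lss encode 6 of its enzymes, and Srebf2 and Insig1 encode 2 of its regulators. They were taken by gene symbol from a platform annotation of 19505 genes, each has 1 probe set, and all 8 were above the level filter that 11703 genes passed (a mean over the arrays above log2 4.67). Expression was measured in epididymal fat of male mice on Clariom S Mouse arrays, with 1 array per group and therefore no replicate error and no test for any value.

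The GW-SA mice received GW4869, which blocks the release of extracellular vesicles, and had synergist ablation, in which a muscle is overloaded by removing its synergists. The GW-Sham mice received GW4869 and sham surgery. The Veh-SA mice received DMSO as vehicle and synergist ablation, and the Veh-Sham mice received DMSO and sham surgery. The labels do not state strain, age, time after surgery or pooling of mice. The comparison of overload with sham asks how fat differs when a muscle elsewhere is overloaded. Its repeat under GW4869 asks whether that changes when vesicle release is blocked. With GW4869 as the only block, loss of vesicle release and other actions of the drug cannot be told apart.

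Cholesterol is built from acetyl-CoA through mevalonate, isoprenoid diphosphates, squalene and lanosterol. SREBP-2, the product of Srebf2, switches on most genes of the route when sterols in the endoplasmic reticulum run low. Insig1 holds the SREBP precursor in that membrane when sterols are plentiful and is itself an SREBP target. Fat cells hold a large pool of free cholesterol, much of it taken up from lipoproteins.

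SREBP acts on promoters together with the factors NF-Y and Sp1, so the windows from 250 bases before to 50 bases from the annotated start were read from the RefSeq promoter table (GRCm38.p6), which held 5 of the 8 genes. The 4 shown are Hmgcs1 (chr13:119690101-119690400), Idi1 (chr13:8885356-8885655), Srebf2 (chr15:82147019-82147318) and Insig1 (chr5:28071162-28071461), all on the plus strand. Hmgcs1 acts at the entry of the route, Idi1 and Insig1 had the largest negative overload differences under GW4869, and Srebf2 had the largest positive one. Capitals mark CCAAT, the NF-Y box, and CACNCCA, a core of the sterol regulatory element, on either strand.
Hmgcs1: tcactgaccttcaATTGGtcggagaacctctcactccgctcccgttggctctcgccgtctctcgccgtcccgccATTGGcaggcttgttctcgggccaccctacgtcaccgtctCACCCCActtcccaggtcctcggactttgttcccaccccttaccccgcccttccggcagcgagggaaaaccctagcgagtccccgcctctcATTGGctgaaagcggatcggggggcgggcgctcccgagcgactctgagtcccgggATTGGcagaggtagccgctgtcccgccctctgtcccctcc
Idi1: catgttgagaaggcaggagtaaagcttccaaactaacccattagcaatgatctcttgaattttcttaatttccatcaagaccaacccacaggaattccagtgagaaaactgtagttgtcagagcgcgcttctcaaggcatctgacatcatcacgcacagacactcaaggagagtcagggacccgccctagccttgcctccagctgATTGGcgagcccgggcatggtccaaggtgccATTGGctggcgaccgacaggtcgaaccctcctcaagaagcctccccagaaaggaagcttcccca
Srebf2: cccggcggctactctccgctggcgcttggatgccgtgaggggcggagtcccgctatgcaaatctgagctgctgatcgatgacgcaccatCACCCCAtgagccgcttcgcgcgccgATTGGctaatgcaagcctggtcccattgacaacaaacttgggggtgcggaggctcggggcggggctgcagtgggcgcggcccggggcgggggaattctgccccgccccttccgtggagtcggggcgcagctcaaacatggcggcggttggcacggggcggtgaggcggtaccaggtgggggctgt
Insig1: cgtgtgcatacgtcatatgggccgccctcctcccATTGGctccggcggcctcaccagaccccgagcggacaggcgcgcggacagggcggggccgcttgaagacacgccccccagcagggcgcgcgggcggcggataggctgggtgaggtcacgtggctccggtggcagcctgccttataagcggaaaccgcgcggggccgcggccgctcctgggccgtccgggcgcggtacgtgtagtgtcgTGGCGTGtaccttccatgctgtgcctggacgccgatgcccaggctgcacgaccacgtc

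The CCAAT box occurred in all 5 windows, with 4 matches in Hmgcs1, 2 in Idi1 and 1 each in Lss, Srebf2 and Insig1. It was present in 37.4% of the 32851 promoters of the table. The sterol element core occurred once each in Hmgcs1, Srebf2 and Insig1 and was not found in Idi1 or Lss, against 18.4% of all promoters. Both motifs together were present in 6.76% of all promoters. GGGCGG, the Sp1 box, was found in all 5 windows, with 5 matches in Srebf2 and 1 to 3 in the others, against 35.7% of all promoters. The E-box, CANNTG, had 1 or 2 matches in each and occurs in 72.3% of promoters. In Hmgcs1 the E-box at position -239 overlapped the NF-Y match at position -237. A match to a short motif describes the letters of a window and is no measure of binding.

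**Figure D1:**
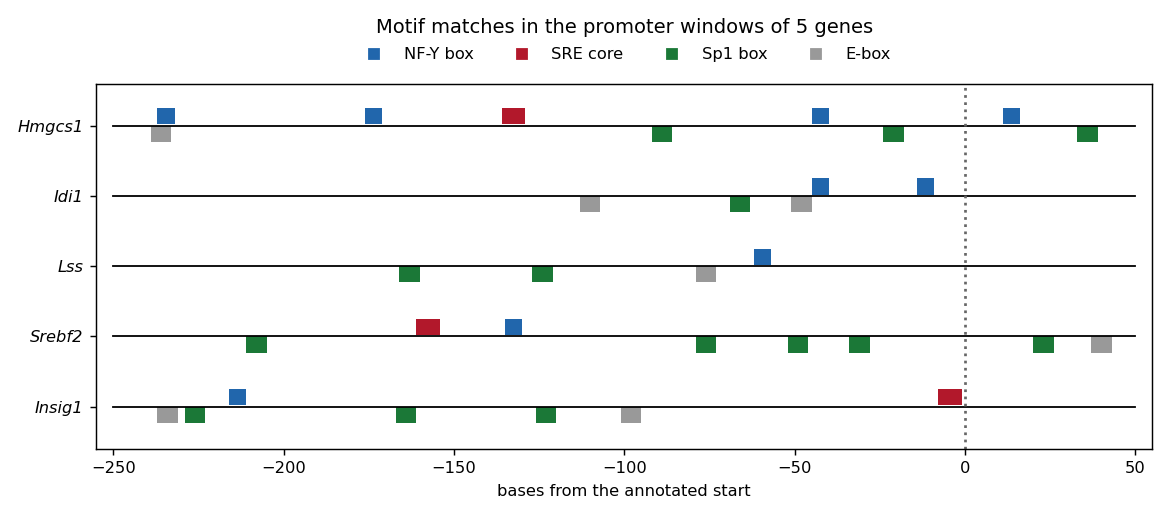
Position of motif matches in the promoter windows of Hmgcs1, Idi1, Lss, Srebf2 and Insig1, in bases from the annotated start (dotted line), with NF-Y and sterol regulatory element (SRE) boxes above each line and Sp1 and E-boxes below it. The SRE core has 1 match each in Hmgcs1, Srebf2 and Insig1 and the NF-Y box has 1 to 4 matches in all 5 genes.

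All values below are the deposited log2 values, on which 1 unit is a doubling, or differences between 2 of them. A difference counted as higher or lower was at least 1.5-fold, a description of 2 arrays and not of 2 conditions. Antigenomic background probes had 95th percentiles between 6.34 and 6.40 on the 4 arrays. For Fdps and Sqle, 3 of 4 readings lay below that limit. The negative control rows of the array had a median of at most 5.20 and a 95th percentile of up to 9.27, which also covers Idi1 and the Veh-Sham reading of Lss. In bulk tissue, fewer cells of a type and less RNA per cell cannot be told apart.

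The fat was not free of other tissue, and this differed between the arrays. The 17 measured adipocyte markers had medians of 15.86 (GW-SA), 16.28 (GW-Sham), 16.73 (Veh-SA) and 16.12 (Veh-Sham), with Adipoq between 19.34 and 19.67. All 16 sperm and testis markers stood at least 4 log2 units higher on the Veh-Sham array than on every other, with a summed level of 19.63 there against 8.39 to 9.64 (log2 of the summed linear values). Of 6 measured Leydig cell markers 3 did so too, with a summed level of 14.93 on Veh-Sham against 5.89 to 6.35, and Cyp17a1, an enzyme of androgen synthesis, at 14.49. Epididymal markers had a summed level of 20.13 on GW-SA, 13.19 on GW-Sham, 7.41 on Veh-SA and 17.69 on Veh-Sham, with 7 of 14 standing that far above the other arrays on GW-SA. The 6 markers of distal epididymis and vas deferens, chosen with their values known, had 7.75, 15.92, 6.12 and 16.55 in the same order of arrays. Macrophage markers had medians of 11.65 (GW-SA), 10.81 (GW-Sham), 9.29 (Veh-SA) and 7.97 (Veh-Sham), higher with GW4869, and smooth muscle markers 10.17, 13.62, 6.55 and 13.92, higher with sham surgery. The part of these tissues in the results below was not tested.

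**Figure D2:**
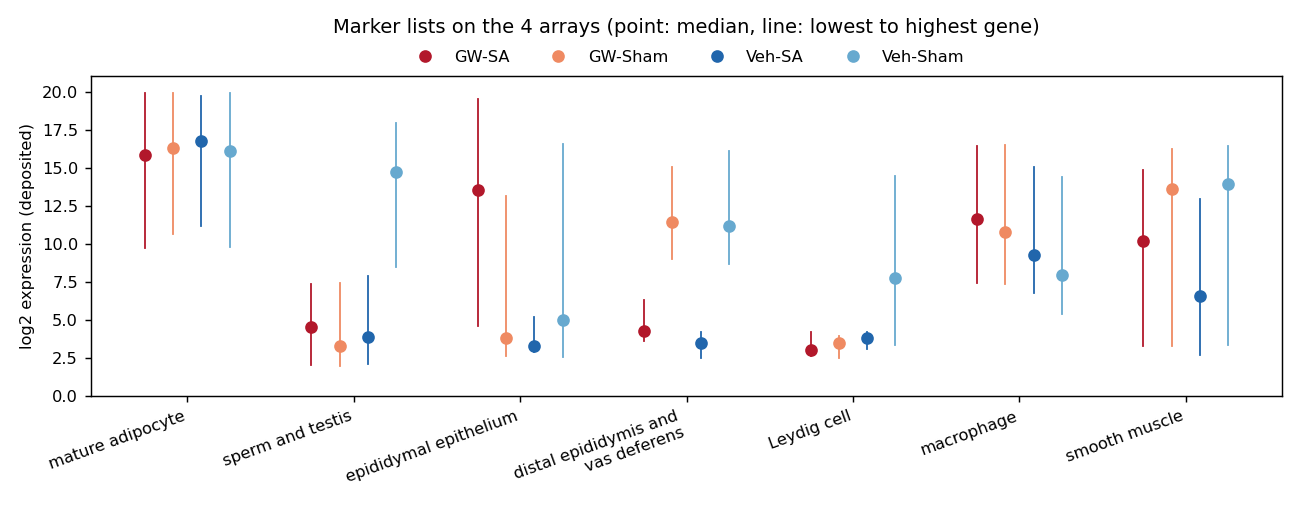
Log2 expression of 7 marker lists on the GW-SA, GW-Sham, Veh-SA and Veh-Sham arrays, with points for list medians and lines from the lowest to the highest gene. Sperm and testis markers are high on Veh-Sham (median 14.72), epididymal markers on GW-SA (median 13.53), and adipocyte markers on all 4 arrays (medians 15.86 to 16.73).

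The 8 genes followed no single pattern over the arrays. Fdft1 and Sqle were highest on the Veh-Sham array, Insig1 was lowest and Srebf2 highest on the GW-SA array, and Idi1 was lower on the overloaded than on the sham array under either injection. These orders were the same with arrays centred on all genes or on adipocyte markers. Hmgcs1 and Lss varied least. Their ranges over the arrays were 0.67 and 0.71, and 69.9% and 65.9% of all genes above the filter ranged at least as widely (median range 0.91).

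**Figure D3:**
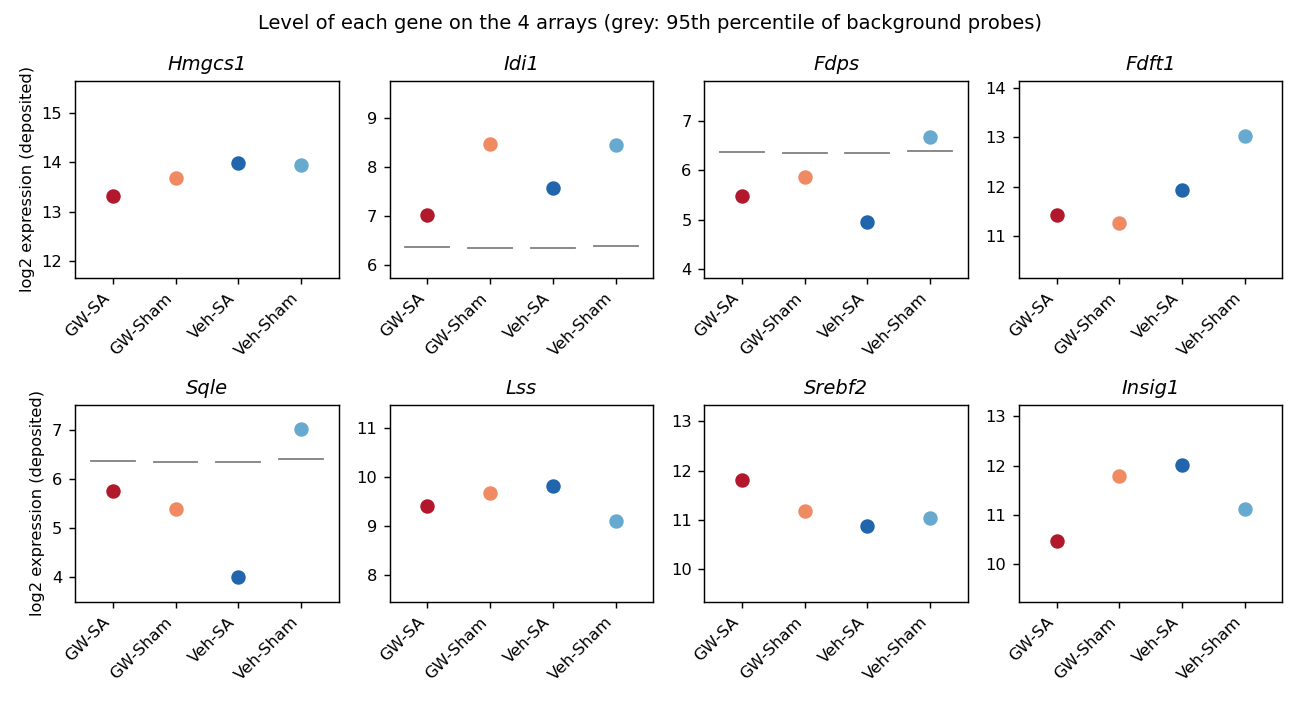
Deposited log2 level of each of the 8 genes on the GW-SA, GW-Sham, Veh-SA and Veh-Sham arrays, 1 point per array. Every panel spans 4 log2 units and the grey lines are the 95th percentile of background probes on each array. Fdps and Sqle exceed that line on the Veh-Sham array alone.

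At the entry of the route, Hmgcs1, which condenses acetyl-CoA with acetoacetyl-CoA, had 13.32 on GW-SA, 13.68 on GW-Sham, 13.99 on Veh-SA and 13.94 on Veh-Sham. The difference of GW-SA minus Veh-SA was -0.67, but 0.20 when arrays were centred on adipocyte markers and -0.53 after removal of the trend on level. That of GW-Sham minus Veh-Sham was -0.27. The overload differences were -0.35 under GW4869 and 0.05 under vehicle.

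Idi1, which interconverts the isoprenoid units of the route, had 7.02 on GW-SA, 8.46 on GW-Sham, 7.58 on Veh-SA and 8.44 on Veh-Sham. The overloaded arrays were the lower ones under either injection, and the sham arrays differed by 0.02. Smooth muscle and distal epididymal markers were likewise higher on both sham arrays, and their part was not tested. The overload difference was -1.44 under GW4869 (2.72-fold) and -0.86 under vehicle (1.82-fold), and the second became -0.39 with centring on all genes. GW-SA was the lowest array as deposited and Veh-SA with centring on adipocyte markers. All 4 readings lie within the upper range of the negative control rows.

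Fdps, which joins these units into farnesyl diphosphate, had 5.49 on GW-SA, 5.87 on GW-Sham, 4.96 on Veh-SA and 6.67 on Veh-Sham. Only the Veh-Sham reading passed the background limit. With readings below the limit set to it, Veh-SA and GW-Sham were each at least 0.33 log2 units lower than Veh-Sham, under 1.5-fold, so the deposited differences of -1.72 and -0.80 are not resolved from background.

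Fdft1, the squalene synthase, is the first enzyme committed to sterols, and had 11.41 on GW-SA, 11.26 on GW-Sham, 11.93 on Veh-SA and 13.04 on Veh-Sham. The Veh-Sham array stood 1.10 above the next highest, as did 7.55% of all genes by at least that gap. Fdft1 differed by -1.10 for Veh-SA minus Veh-Sham (2.15-fold; -0.63 with centring on all genes, -1.71 with centring on adipocyte markers) and by -1.78 for GW-Sham minus Veh-Sham (3.43-fold). The comparisons without the Veh-Sham array gave 0.16 for GW-SA minus GW-Sham (0.58 with centring on adipocyte markers) and -0.52 for GW-SA minus Veh-SA. The second was -0.74 with centring on all genes and turned to 0.35 with centring on adipocyte markers.

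Sqle, the squalene epoxidase, a rate-limiting enzyme of the later route, had 5.75 on GW-SA, 5.38 on GW-Sham, 4.01 on Veh-SA and 7.01 on Veh-Sham. Veh-Sham alone was above the background limit. Against that limit, Veh-SA was at least 0.66 and GW-Sham at least 0.67 log2 units lower than Veh-Sham, and the order of the other 3 arrays cannot be read.

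Lss, which closes oxidosqualene into lanosterol, had 9.40 on GW-SA, 9.68 on GW-Sham, 9.82 on Veh-SA and 9.11 on Veh-Sham. It was lowest on the array where Fdft1 and Sqle were highest. The overload difference under vehicle was 0.71, and 0.11 with centring on adipocyte markers or 0.36 after trend removal.

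Of the regulators, Srebf2 had 11.81 on GW-SA, 11.17 on GW-Sham, 10.86 on Veh-SA and 11.04 on Veh-Sham. The GW-SA array stood 0.64 above the next, as did 6.14% of all genes by at least that gap. Overload under GW4869 differed by 0.64, or 0.54 with centring on all genes and 1.06 with centring on adipocyte markers. GW4869 in overload differed by 0.95 (1.93-fold), or 0.73 and 1.82 with these centrings. Under vehicle the overload difference was -0.17, but 0.30 with the first and -0.78 with the second.

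Insig1 had 10.47 on GW-SA, 11.80 on GW-Sham, 12.01 on Veh-SA and 11.13 on Veh-Sham. It was lowest on the GW-SA array, by 0.66 below the next, a gap that 2.50% of all genes reached there. GW-SA minus GW-Sham was -1.33 (2.52-fold) and GW-SA minus Veh-SA was -1.54 (2.91-fold). Centring on adipocyte markers, whose own medians were lowest on GW-SA, left -0.91 and -0.67. Veh-SA minus Veh-Sham was 0.88, or 0.27 with that centring. Srebf2 and Insig1 thus lay on opposite sides of the other arrays on GW-SA.

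For overload under vehicle, 2 of the 8 genes were higher on Veh-SA (Lss and Insig1), where 30.2% of all genes were, and 4 were lower (Idi1, Fdps, Fdft1 and Sqle), where 16.9% of all genes were. The median of the 8 was -0.52 and that of all genes 0.26, a gap of -0.77. With the background limit applied the medians were -0.25 and 0.05. Across all genes, 58.2% were higher and 11.4% lower with centring on all genes, and 6.85% and 36.9% with centring on adipocyte markers. The split was 2 higher and 3 lower with centring on all genes, 0 and 5 with centring on adipocyte markers and 1 and 4 after trend removal (15.3% and 23.8% of all genes). With the background limit applied, 3 were lower (13.2% of all genes). Every one of these values rests on the Veh-Sham array, which carried the sperm and Leydig cell transcripts, and the comparison cannot be formed without it.

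For overload under GW4869, 1 of 8 was higher on GW-SA (Srebf2; 13.4% of all genes) and 2 were lower (Idi1 and Insig1; 15.3% of all genes). The counts are near the background shares. The median was -0.32 against -0.04 for all genes, a gap of -0.28, and -0.13 against 0.02 with the background limit applied. With centring on adipocyte markers it was 0.10 against 0.38. Centring shifts every gene on an array alike and cannot change this gap. Centring on all genes gave 0 higher and 2 lower (10.6% and 19.7% of all genes), and centring on adipocyte markers 2 and 2 (34.4% and 5.27%). Epididymal transcripts were high on GW-SA, and their part was not tested.

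For GW4869 in sham mice, 1 of 8 was higher on GW-Sham (Insig1 at 0.67; 28.9% of all genes) and 3 were lower (Fdps, Fdft1 and Sqle; 14.4% of all genes). With the background limit applied, 2 were lower (11.8% of all genes). The median as deposited was -0.12 against 0.27 for all genes, a gap of -0.39, and -0.12 against 0.09 with that limit applied. With centring on all genes it was 0.24 against 0.63, a gap that centring leaves unchanged by construction. Centring on all genes gave 2 higher and 2 lower (53.0% and 10.5% of all genes). Centring on adipocyte markers gave 0 and 3 (20.5% and 17.5%), as did trend removal (14.6% and 21.5%). This comparison and overload under vehicle share the Veh-Sham array, so Fdft1 at -1.78 and -1.10 is not seen independently in them.

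For GW4869 in overloaded mice, 2 of 8 were higher on GW-SA (Sqle and Srebf2; 18.4% of all genes) and 2 were lower (Hmgcs1 and Insig1; 18.8% of all genes). Both Sqle readings lay within background, which leaves Srebf2. The median was -0.47 against -0.04 for all genes, a gap of -0.43. With centring on adipocyte markers it was 0.40 against 0.83, a gap that centring leaves unchanged by construction. The split was 2 higher and 5 lower with centring on all genes (12.7% and 29.5% of all genes), 3 and 1 with centring on adipocyte markers (65.7% and 1.70%), and 2 and 1 after trend removal (20.5% and 16.2%).

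**Figure D4:**
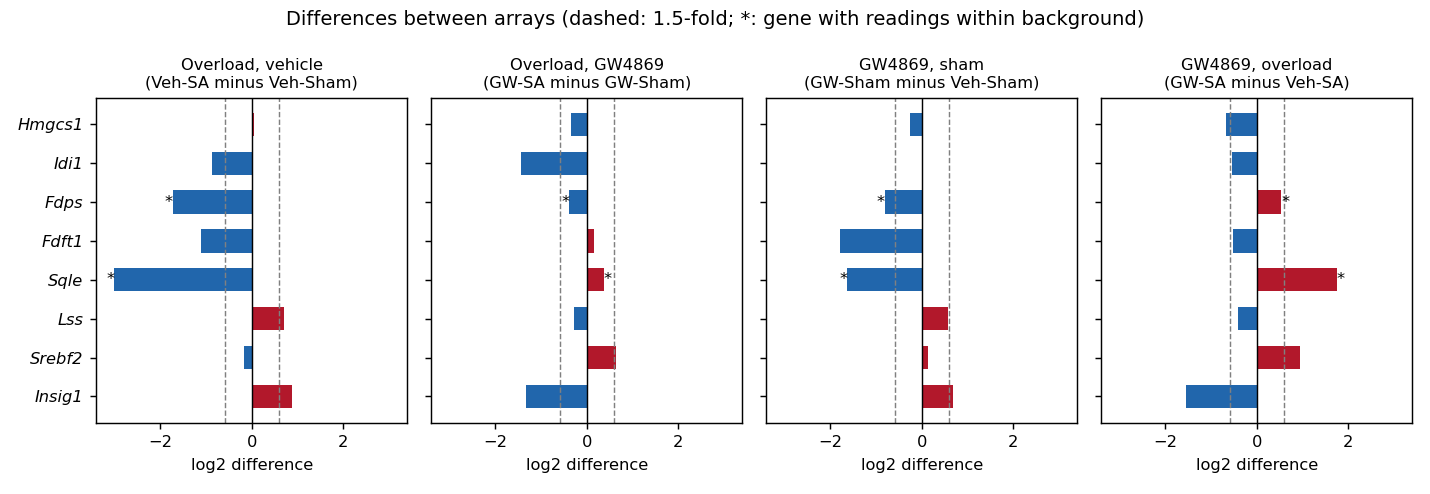
Log2 differences of the 8 genes in the 4 comparisons, with bars to the right for genes higher on the array named first, dashed lines at 1.5-fold, and a star for Fdps and Sqle, whose readings were mostly within background. Fdft1 is at -1.10 and -1.78 in the 2 comparisons that use Veh-Sham, and Insig1 is at -1.33 and -1.54 in the 2 that use GW-SA.

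The difference between the overload differences, under GW4869 minus under vehicle, was at least 1.5-fold above 0 for 4 of 8 genes (21.5% of all genes) and below 0 for 2 (36.3% of all genes). Insig1 had -2.21 and Lss -0.99, which became 0.03 with centring on adipocyte markers, whereas Fdft1 had 1.26 (0.68 with centring on all genes) and Srebf2 0.81 (0.24 with that centring). Fdps and Sqle had 1.34 and 3.37 as deposited, or 0.35 and 0.69 with the background limit applied. The median of the 8 was 0.21 against -0.27 for all genes, a gap of 0.47 that was not seen with the background limit applied (-0.03 against -0.02). With centring on all genes it was -0.37 against -0.84, a gap that centring leaves unchanged by construction. Centring on all genes gave 3 above and 4 below (13.7% and 60.4% of all genes), and centring on adipocyte markers 5 and 1 (57.4% and 6.88%).

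The counts of related lists are read against the shares of all genes in the same comparison. For overload under vehicle these were 30.2% higher and 16.9% lower, or 58.2% and 11.4% with centring on all genes and 6.85% and 36.9% with centring on adipocyte markers. For overload under GW4869 they were 13.4% and 15.3%, or 10.6% and 19.7% and 34.4% and 5.27% with these centrings. The other steps of the route gave 11 measured genes, all above the filter. For overload under vehicle 1 was higher and 1 lower, with a median of -0.18 against 0.26 for all genes. Centring on all genes gave 3 and 0 with a median of 0.29 against 0.73 for all genes, and centring on adipocyte markers 0 and 8. Pmvk, which adds the second phosphate to mevalonate, was at 1.00 and Cyp51, the lanosterol demethylase, at -0.92, while Ebp and Nsdhl had 0.57 and -0.51. For overload under GW4869, 1 was higher and 3 lower, with a median of -0.27 against -0.04 for all genes. Centring on adipocyte markers gave 2 and 1, with a median of 0.15 against 0.38 for all genes. Pmvk had 1.47, Sc5d, a late desaturase, had -1.16, and Msmo1 and Cyp51, which act on methylsterols, had -0.64 and -0.61. Mvk and Mvd were below the background limit on all 4 arrays.

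Sc5d had 13.51 on GW-SA, 14.67 on GW-Sham, 14.61 on Veh-SA and 14.64 on Veh-Sham, so GW-SA stood below 3 arrays at 14.61 to 14.67, and it was also lowest with either centring. Pmvk had 10.18 on GW-SA, 8.71 on GW-Sham, 8.46 on Veh-SA and 7.46 on Veh-Sham, highest on the array where Insig1 was lowest. Cyp51 had 9.13, 9.74, 9.26 and 10.17 in that order of arrays, with both sham arrays above both overloaded ones, as for Idi1. Of the 17 enzymes of the route measured, the 6 above included, 8 were highest on Veh-Sham (19.8% of all genes), or 4 with centring on all genes (12.2%) and 10 with centring on adipocyte markers (20.7%). Likewise 8 were lowest on GW-SA (22.3% of all genes), or 8 (17.7%) and 1 (4.20%) with these centrings, and with the second 13 were lowest on Veh-SA (62.3%). As deposited, Mvk is among both 8s and Mvd among the first, at background level.

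Among SREBP regulators, Scap, the sterol sensor that escorts SREBP, had 9.29 on GW-SA, 9.50 on GW-Sham, 8.74 on Veh-SA and 8.32 on Veh-Sham. Both GW4869 arrays were above both vehicle arrays, with either centring too, as were macrophage markers as deposited, whose part was not tested. Insig2, the paralog of Insig1, had 7.83, 7.56, 7.79 and 7.42 in the same order and was highest on GW-SA, or with centring on all genes on Veh-SA. For overload under GW4869, 1 of the 11 measured regulators, Erlin2 at 0.61, was higher (13.4% of all genes) and 0 were lower (15.3%). Centring on all genes gave 0 and 0 (10.6% and 19.7%), and centring on adipocyte markers 4 and 0 (34.4% and 5.27%). For overload under vehicle 2 were higher and 2 lower (30.2% and 16.9% of all genes). Centring on all genes gave 8 and 2 (58.2% and 11.4%), and centring on adipocyte markers 0 and 3 (6.85% and 36.9%). As deposited Rnf139 was at -2.21, Pgrmc1 at -1.15 and Erlin1 at 1.11. Rnf139, a ubiquitin ligase of the endoplasmic reticulum, stood at 12.66 on Veh-Sham against 9.99 to 10.46 on the others. Srebf1 is not analysed here.

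Genes of sterol uptake and trafficking gave 10 above the filter. For overload under vehicle 4 were higher and 3 lower (30.2% and 16.9% of all genes). Centring on all genes gave 6 and 1 (58.2% and 11.4%), and centring on adipocyte markers 0 and 4 (6.85% and 36.9%). Under GW4869 1 was higher and 1 lower (13.4% and 15.3%). Tmem97, a sterol-regulated membrane protein, had 8.40 on GW-SA, 7.61 on GW-Sham, 8.06 on Veh-SA and 12.66 on Veh-Sham, apart on the array that carried testis transcripts. Stard3 had 1.07 and Npc1, which exports cholesterol from lysosomes, 0.94 for overload under vehicle, while Npc2 had -0.90. Of 4 genes of sterol efflux and ester hydrolysis, 2 were higher and 0 lower for overload under vehicle (30.2% and 16.9% of all genes). The sterol exporters Abca1 and Abcg1 were at 1.20 and 0.97. The median of the 4 was 0.66 against 0.26 for all genes, and 0.05 against -0.35 with centring on adipocyte markers. With that centring 1 was higher (6.85% of all genes), and with centring on all genes 4 were (58.2%). The list as first drawn up also held Acat1, a mitochondrial thiolase and no esterification enzyme, at 0.98, which was left out here after its value was seen. With it 3 of 5 were higher (30.2% of all genes), with a median of 0.97. Under GW4869 1 of the 4 was higher and 1 lower (13.4% and 15.3% of all genes). Abcg1 had 1.63, Nceh1, a cholesteryl ester hydrolase, -1.13, and Abca1 0.11. Nr1h3, which encodes the sterol-sensing receptor LXR alpha, had 1.24 for overload under vehicle and -0.67 under GW4869. It belongs to a list of 6 measured genes of sterol sensing, with Abca1 and Abcg1 also among them. For overload under vehicle 3 of these were higher and 0 lower (30.2% and 16.9% of all genes), with a median of 0.66 against 0.26 for all genes. With centring on adipocyte markers 2 were higher and 1 lower (6.85% and 36.9%), with a median of 0.06 against -0.35. Lpcat3 of that list had -0.47 for overload under vehicle as deposited. Under GW4869 1 of the 6 was higher and 2 lower (13.4% and 15.3%), or 1 and 0 with centring on adipocyte markers (34.4% and 5.27%).

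Fatty acid synthesis, driven mainly by SREBP-1 in many tissues, was measured with 14 genes. For overload under GW4869, 9 were lower (15.3% of all genes) and 2 higher (13.4%), with a median of -1.31 against -0.04 for all genes. With centring on adipocyte markers 8 were lower (5.27%) and 2 higher (34.4%), with a median of -0.89 against 0.38. Fasn had -3.64, Pnpla3 -2.66, Acss2 -2.13 and Me1 -1.99, while the 2 higher were Elovl6 at 1.10 and Fads2 at 0.83, as deposited. The 8 sterol genes had a median of -0.32 and the other steps -0.27 on the same arrays (0.10 and 0.15 with that centring). For overload under vehicle the fatty acid list had a median of 0.02 against 0.26 for all genes, with Fads2 at -4.98. With centring on adipocyte markers the medians were -0.59 and -0.35. For overload under GW4869, 2 of the 8 sterol genes were lower and 1 higher, against 15.3% and 13.4% of all genes. Of the 11 other steps 3 were lower and 1 higher. Idi1, Insig1 and Sc5d were among the lower, and Srebf2 (0.64) and Pmvk (1.47) were the higher. As deposited Hmgcs1, Fdft1 and Lss differed by 0.35 or less between GW-SA and GW-Sham. Epididymal transcripts were high on GW-SA, and their part in these differences was not tested.

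**Figure D5:**
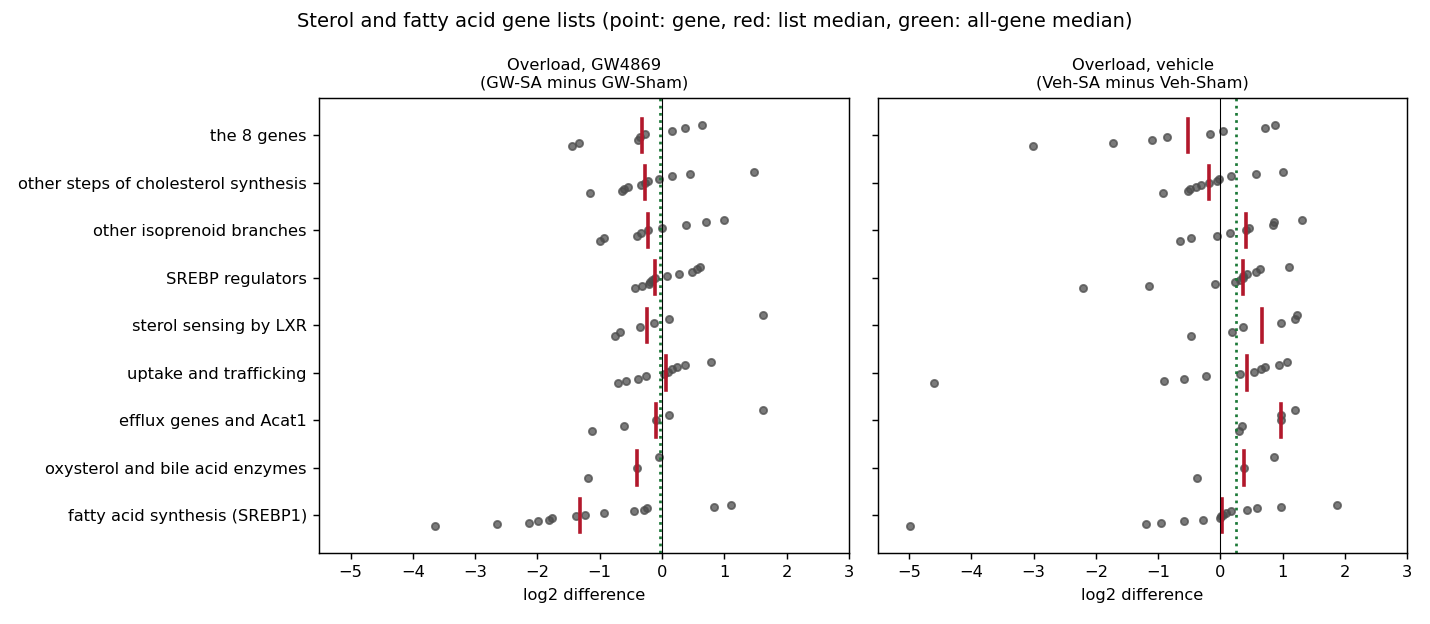
Log2 differences for overload under GW4869 (left) and under vehicle (right) of the 8 genes and of 8 related lists, with a point per gene above the filter, a red bar at the list median and a green dotted line at the all-gene median. The fatty acid list lies lowest under GW4869 (median -1.31 as deposited, -0.89 with centring on adipocyte markers), and the 8 genes have -0.32 as deposited and 0.10 with that centring. All genes have -0.04 as deposited and 0.38 with that centring.

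The genes nearest to the median profile of the 8 were ranked by Euclidean distance over the 4 arrays, each profile centred on its own mean, among 11306 other genes. They were Vax1 (0.02), Bsg (0.06), Dctn6 (0.08), Tfam (0.09), Rbm38 (0.10), Gpbp1 (0.10), Nsdhl (0.12) and Tmem50b (0.12), with distances in log2 units. Nsdhl, a sterol dehydrogenase, is a step of the same route. Vax1 and Rbm38 lay near the background limit. The median profile was a poor summary of the 8, since Hmgcs1 was nearest to it at 0.45 and Sqle farthest at 1.86, against a median of 0.99 over all these genes, and 733 genes were nearer than Hmgcs1.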

How the data were processed

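For each probe set the authors deposited a log2 value. The submitters' processing notes name Partek and RMA. Their versions, settings and genome build are not stated there. Values reach 19.93, and the step that set this scale was not identified.

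Probe sets were named through a platform annotation, and where a gene had several, the brightest on average was kept. Genes with a mean above the 40th percentile (log2 4.67) were counted. Groups came from the sample titles. With 1 array per group only differences of log2 values were computed (Python 3.11.15, pandas 2.3.3), and the counting step was tested on simulated data. The number of arrays limits the precision. The members and gene lists were chosen with earlier results of these data known. Named genes are the 8 members, the largest differences of each list (at most 4 per comparison), Scap and Insig2, and the 8 nearest profiles. Alternatives were 3 scalings, low readings set to the filter value, a 2-fold threshold, averaging of probe sets and no filter; centring on genes above the filter, the background limit and a list without Acat1 were added after seeing the data. Promoters came from the RefSeq table.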

Additional observations from a re-analysis of the deposited data

Results flagged for a closer look

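Insig1 moved in opposite directions with overload under the 2 injections, by 0.88 log2 units under vehicle (Veh-SA minus Veh-Sham) and by -1.33 under GW4869 (GW-SA minus GW-Sham). Each direction rests on 1 pair of arrays and the difference between them was not tested. A difference of at least 1.5-fold up under vehicle and down under GW4869 was also found for 647 of 11703 genes (5.53%), and in either order for 9.72%. Centred on adipocyte markers, the vehicle value was 0.27 and the GW4869 value -0.91.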

How the results depend on the processing

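Of 40 differences of the 8 genes, 23 were at least 1.5-fold as deposited, 13 of these were past the threshold in use under every alternative chosen at the outset, and 21 kept their sign. Those that turned were Hmgcs1 for GW4869 in overload (0.20) and Lss for the difference between overload differences (0.034), both with centring on adipocyte markers. The cause was not tested. The background limit was not among the alternatives chosen at the outset. The 13 include differences of Fdps and Sqle. Those of Fdps, and that of Sqle for GW4869 in overload, were under 1.5-fold with that limit applied. Counts of genes that left 1.5 times their deposited value were as follows. Centring on all genes gave 0 higher for overload under GW4869, 2 higher for GW4869 in sham, 5 lower for GW4869 in overload and 4 lower for the difference between overload differences. Centring on genes above the filter gave 4 lower for GW4869 in overload. Centring on adipocyte markers gave 0 higher for overload under vehicle, 2 higher for overload under GW4869, 0 higher for GW4869 in sham, 1 lower for GW4869 in overload and 1 lower for the difference. Trend removal gave 1 higher for overload under vehicle, 0 higher for GW4869 in sham and 1 lower for GW4869 in overload. A 2-fold threshold gave 0 higher for overload under vehicle, for overload under GW4869 and for GW4869 in sham, 1 higher and 1 lower for GW4869 in overload, and 1 lower for the difference, by its construction. Readings set to the background limit gave 1 higher for GW4869 in overload. Averaging probe sets, dropping the filter and setting low readings to the filter value moved no count by that much, and each gene has 1 probe set. Centring on all genes moved the median gene for overload under vehicle to 0.73 and on adipocyte markers to -0.35, from 0.26, and the share of all genes at least 1.5-fold higher to 58.2% and 6.85%, with 11.4% and 36.9% lower. No paired analysis was possible because each group has 1 array. Signal over background limits Fdps and Sqle.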

Other observations

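Enzymes of other isoprenoid branches gave 9 genes above the filter. For overload under vehicle 3 were higher and 1 lower (30.2% and 16.9% of all genes). Centring on all genes gave 6 and 0 (58.2% and 11.4%), and centring on adipocyte markers 1 and 3 (6.85% and 36.9%). Ggps1, which makes geranylgeranyl diphosphate, was at 0.86 and Coq2, an enzyme of ubiquinone synthesis, at 0.84. Fntb, at 1.30, was below the background limit on all 4 arrays. Under GW4869 2 were higher and 2 lower (13.4% and 15.3% of all genes), or 3 and 0 with centring on adipocyte markers (34.4% and 5.27%). As deposited Coq2 had -0.99 and Fntb -0.93. Nus1, a subunit of the enzyme that makes dolichol chains, had 12.31 on GW-SA, 11.32 on GW-Sham, 11.33 on Veh-SA and 10.87 on Veh-Sham. Of enzymes that modify cholesterol, Cyp27a1, a mitochondrial sterol hydroxylase, had 9.80 on GW-SA, 10.98 on GW-Sham, 11.03 on Veh-SA and 10.64 on Veh-Sham, again lowest on GW-SA. Ch25h, Cyp46a1 and Cyp7a1 were below the background limit on all 4 arrays.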
